A study of Mus musculus with 8 samples.

Results

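A set of 45 genes for DNA replication and nucleotide synthesis was followed in Ebf1-deficient pro-B cell lines of the mouse, as a measure of proliferation. The genes were listed by symbol out of 20125 genes named on the array, with earlier results of these data known. Each was read from 1 probe, the one with the highest mean over the 8 arrays. They comprised the MCM2-7 helicase (6 genes), the origin recognition complex (6), licensing factors (3), helicase activators (6), the sliding clamp and its loader (6), polymerases and primase (8), single-strand binding proteins (3), Okazaki fragment enzymes (2), deoxynucleotide enzymes (4) and the regulator E2f1. All 45 were well above background on all 8 arrays and were tested in every comparison, so none was lost to the filter on dim probes.

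Every group lacked EBF1, a transcription factor needed for the B lineage, because the lines came from fetal liver progenitors of Ebf1-deficient mice. Pro-B(+) cells, which can enter the T lineage when Notch is stimulated, had been kept on OP9 stromal cells treated with mitomycin C, and pro-B(−) cells, which cannot, on TD7, a thymic stromal line for which the methods state no such treatment. Both were grown with SCF, Flt3L and IL-7. The pro-B(−)/Mock and pro-B(−)/LMO2 groups were pro-B(−) cells with a lentiviral vector marked by rat CD2, empty in the first and encoding mouse Lmo2 in the second. Each group was 1 line or 1 transduced population with 2 arrays, and the labels give neither the stromal cells nor the Notch ligand in the cultures of the transductants. A legend of the study calls the parental arrays independent biological replicates, and nothing of the kind was found for the transductants, so that p-values there may measure technical spread alone.

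The arrays were alike in quality, with 56.5% to 61.2% of probes well above background and no saturated spot. Values are log2 signals relative to the upper quartile of the array, so that 0 lies at that quartile. The 45 genes agreed closely between replicate arrays, with a median difference of 0.02 to 0.05 in each group and a largest of 0.52, for Tk1 in pro-B(−)/LMO2. The parental lines shared 1 slide and 1 scan, and the transductants shared the other slide and scan. Pro-B(+) could therefore be set against pro-B(−), and pro-B(−)/LMO2 against pro-B(−)/Mock, within a slide, whereas a difference between a parental line and a transductant cannot be told apart from slide. Lmo2 itself was at 2.09 and 2.10 in pro-B(+), 0.63 and 0.63 in pro-B(−), 0.35 and 0.35 in pro-B(−)/Mock and 0.99 and 0.93 in pro-B(−)/LMO2. Whether its probe reads the vector transcript was not tested. Of the 14 markers of lymphoid progenitors on the array, 12 or 13 were well above background on each array.

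Before a cell copies its DNA, the origin recognition complex with CDC6 and CDT1 loads the MCM2-7 ring onto origins, and geminin blocks loading again once copying has begun. In S phase, CDC45 and the GINS complex join the ring to form the moving helicase, polymerases extend primers along the clamp PCNA, and ribonucleotide reductase, thymidylate synthase and thymidine kinase provide deoxynucleotides. E2F factors drive many of these genes as cells pass from G1 into S phase, which is why their transcripts are used to gauge proliferation. Array signals come from all cells of a sample, and fewer cycling cells cannot be told apart from less RNA of these genes per cell.

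Upstream sequence is shown for members whose promoter holds an E2F word, since E2F factors are the regulators these genes are known for. The RefSeq promoter table (GRCm38.p6, 250 bases before to 50 after each start) held 37 of the 45 genes, without Mcm4, Gmnn, Gins1, Gins2, Gins4, Rfc2, Prim2 and Pole. The words searched were TTTCCCGC, TTTCGCGC, TTTGCCGC and TTTGGCGC, on both strands, and they can overlap each other. At least 1 of them stood in a promoter of 14 of the 37 genes (37.8%), against 704 of 27025 genes in the whole table (2.605%). The 14 were Cdc6, Cdt1, Gins3, Lig1, Mcm3, Mcm5, Mcm6, Mcm7, Orc1, Orc3, Pold1, Pold3, Pole2 and Rfc3. The CCAAT box (CCAAT) was found in 22 of the 37 (59.5%), against 41.1% of all genes, and the cell cycle homology words (TTTGAA or TTCGAA) in 7 (18.9%), against 21.7%. A match is a description of the letters and not of a bound site.

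For 2 ring subunits, 2 loading factors and the GINS gene that was not called with Lmo2, 80 bases from the region before the start are printed 5′ to 3′ on the strand of the gene, with the E2F words in capitals. The Mcm5 stretch holds a pair of overlapping words in 1 run of capitals, and the Mcm6 stretch holds 2 apart.
Mcm5 (chr8:75109300-75109379, plus strand, GRCm38.p6): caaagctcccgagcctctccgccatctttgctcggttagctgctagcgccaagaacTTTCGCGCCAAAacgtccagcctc
Mcm6 (chr1:128359733-128359812, minus strand, GRCm38.p6): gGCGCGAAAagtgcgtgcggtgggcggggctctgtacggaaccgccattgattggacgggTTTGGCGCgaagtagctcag
Orc1 (chr4:108579367-108579446, plus strand, GRCm38.p6): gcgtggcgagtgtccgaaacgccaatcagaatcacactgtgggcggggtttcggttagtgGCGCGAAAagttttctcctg
Cdc6 (chr11:98907953-98908032, plus strand, GRCm38.p6): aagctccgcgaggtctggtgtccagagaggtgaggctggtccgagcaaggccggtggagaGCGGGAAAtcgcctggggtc
Gins3 (chr8:95633458-95633537, plus strand, GRCm38.p6): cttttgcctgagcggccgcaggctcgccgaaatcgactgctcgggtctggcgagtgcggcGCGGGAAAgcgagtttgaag

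The 45 genes were lowest in pro-B(−)/LMO2 cells. For each array, the median over the genes was taken of the signal minus the gene's own mean over the 8 arrays. This median was 0.15 and 0.15 on the pro-B(+) arrays, 0.28 and 0.24 on the pro-B(−) arrays, 0.06 and 0.06 on the pro-B(−)/Mock arrays, and -0.48 and -0.43 on the pro-B(−)/LMO2 arrays. The same median over all 20376 probes well above background on every array ran from -0.05 to 0.05. On the first pro-B(−)/LMO2 array 1 of the 45 genes lay above its own mean, and on the second 0 did, against 32 to 45 genes on each of the other 6 arrays. Pro-B(−) was the highest group for 29 genes, pro-B(+) for 8 and pro-B(−)/Mock for 8, and pro-B(−)/LMO2 was the lowest for 42. The order pro-B(−), pro-B(+), pro-B(−)/Mock, pro-B(−)/LMO2 from high to low was the most frequent, with 23 genes, among them 4 ring subunits (Mcm2, Mcm3, Mcm4 and Mcm7), although steps between the slides cannot be told apart from slide, and with median scaling the median deviation of pro-B(+) lay under that of pro-B(−)/Mock (-0.021 against 0.19). Against the upper quartile of the array, 36 genes lay above it on all 8 arrays, and Orc1, Orc2, Orc4, Orc5, Pola2 and Tyms lay under it on all 8.

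**Figure D1:**
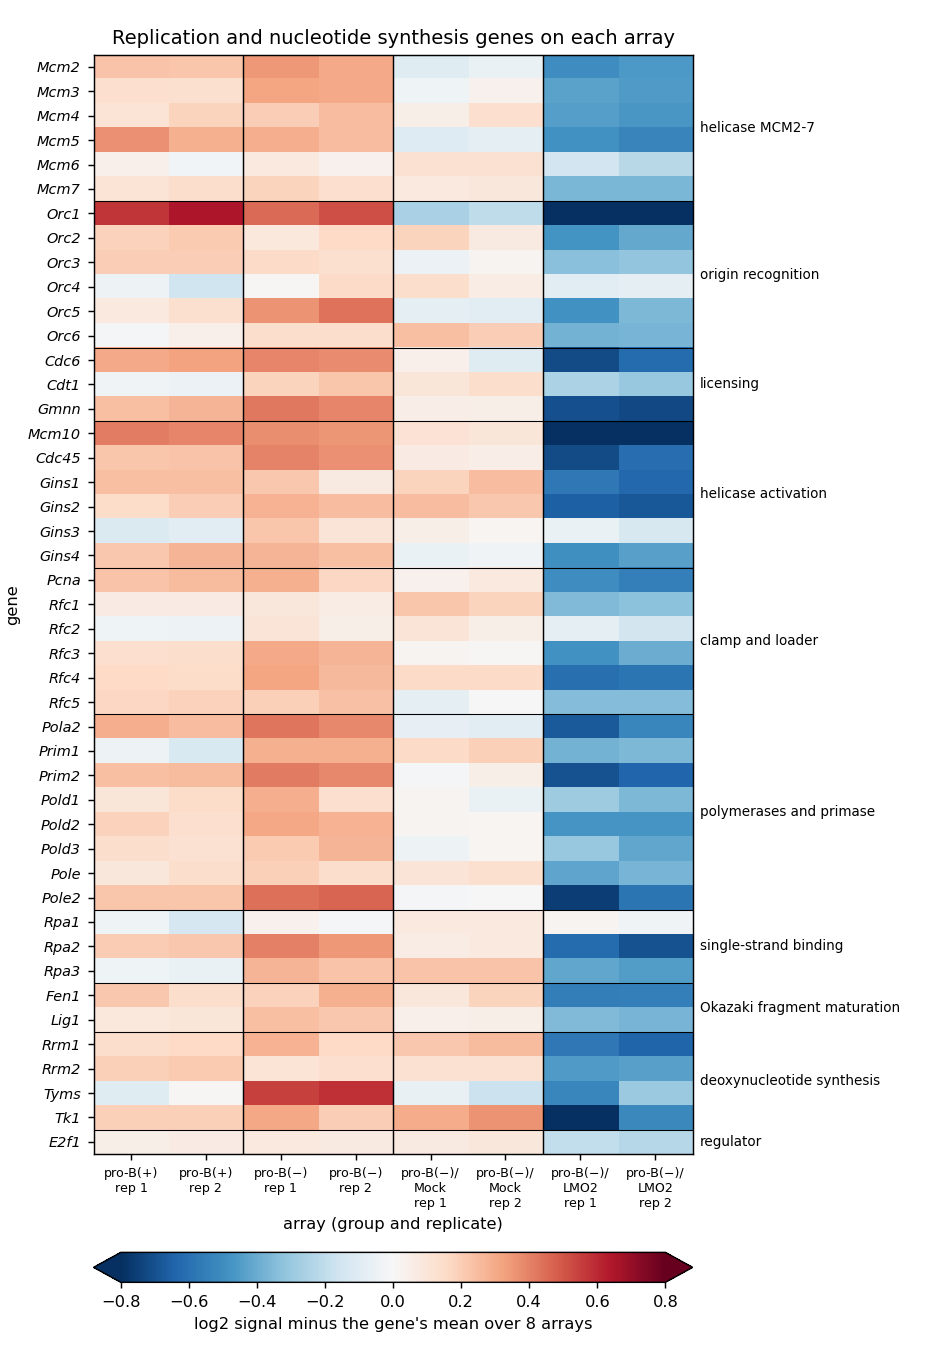
Each row is 1 of the 45 genes, grouped by role, and each column 1 array, and the colour gives the log2 signal minus the mean of that gene over 8 arrays (values past the ends of the scale share the end colours). The pro-B(−)/LMO2 columns are blue for nearly all genes, Rpa1, Orc4, Gins3 and Rfc2 are pale there, and the darkest reds are those of Orc1 in pro-B(+) and Tyms in pro-B(−).

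The comparison of pro-B(−)/LMO2 with pro-B(−)/Mock asked how these genes differ between the Lmo2 vector and the empty vector. Of the 45 genes, 42 fell (93.3%) and 0 rose, where 36.0% of the 22995 probes tested were called lower and 28.0% higher (limma, Benjamini-Hochberg adjusted p under 0.05). The median log2 change was -0.52, against -0.04 over all probes tested, and the range ran from -1.10 to -0.08. A fall of 0.5 or more was called for 24 of the 45, against 13.2% of all probes. Both pro-B(−)/LMO2 arrays lay under both pro-B(−)/Mock arrays for all 45 genes, as they did for 46.2% of probes. They also lay under all 6 other arrays for 42 genes, against 28.8% of probes, and the exceptions were Orc4, Gins3 and Rpa1. The count of genes called lower was between 39 and 45 under every alternative processing that was run, and quantile normalization in addition called Rpa1 higher (0.12, adjusted p = 0.0445).

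**Figure D2:**
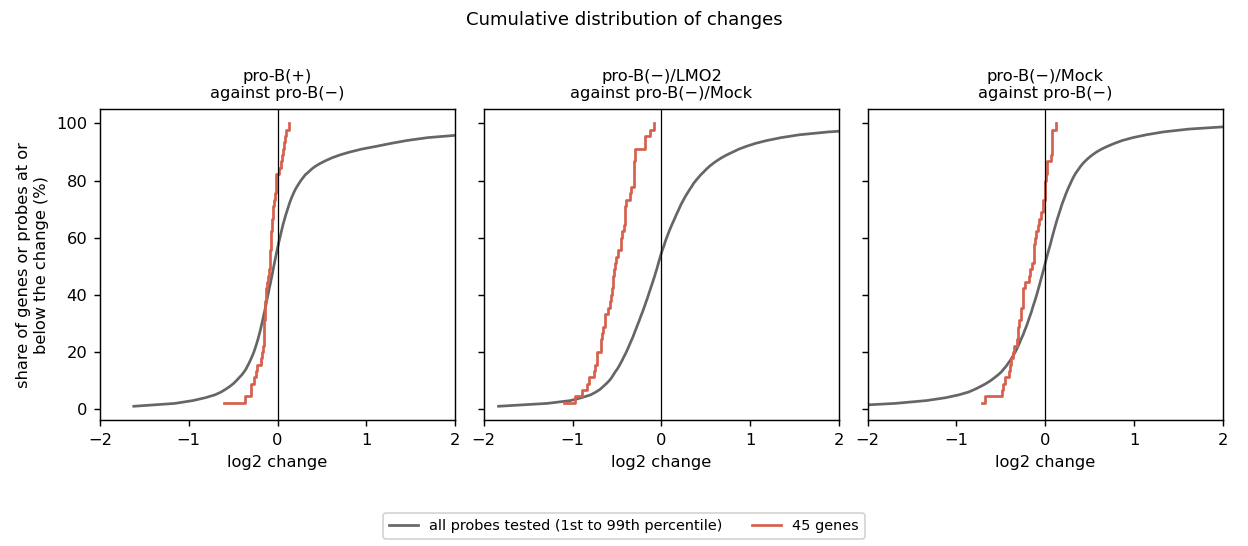
Cumulative share (%, vertical axis) of the 45 genes (red steps) and of all probes tested (grey curve) at or below a given log2 change (horizontal axis), for 3 comparisons of 2 arrays against 2. In pro-B(−)/LMO2 against pro-B(−)/Mock the red steps end at -0.08, left of 0, with a median of -0.52 against -0.04, whereas the red steps of pro-B(+) against pro-B(−) are steep and lie close to 0, with a median of -0.09.

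All 4 deoxynucleotide genes were called lower, with a median of -0.70. Tk1, the cytosolic thymidine kinase that salvages thymidine in S phase, was at 3.27 and 3.27 in pro-B(+), 3.39 and 3.28 in pro-B(−), 3.38 and 3.44 in pro-B(−)/Mock and 2.05 and 2.57 in pro-B(−)/LMO2. The 6 other arrays lay within a narrow band, and the pro-B(−)/LMO2 arrays were lower but far apart from each other. The change was -1.10 (SE 0.16, adjusted p = 0.00205), a 2.15-fold lower signal, and its SE was the largest of the set. Without pro-B(−)/LMO2 replicate 1 the change of Tk1 was -0.84, a smaller fall than the -1.04 of Mcm10, and without replicate 2 it was -1.36, so its place as the largest fall rested on 1 array. Rrm1, the large subunit of ribonucleotide reductase, was at 3.95 and 3.99 in pro-B(−)/Mock and at 3.17 and 3.10 in pro-B(−)/LMO2, and fell by 0.84 on the log2 scale (SE 0.05, adjusted p = 7.74e-05). Rrm2, which encodes the small subunit that cells make for S phase, fell by 0.56 on the log2 scale (SE 0.03, adjusted p = 5.15e-05), from 4.37 and 4.37 to 3.80 and 3.82. Neither subunit overlapped between the groups, and both were at or above 3.88 on the arrays of the other 3 groups. Tyms, thymidylate synthase, changed least of the 4 (log2 change -0.29, SE 0.09, adjusted p = 0.0305), and its probe was dim, at -2.55 and -2.66 in pro-B(−)/Mock and -3.02 and -2.79 in pro-B(−)/LMO2. This call was lost with normexp background correction (adjusted p = 0.148), and without any 1 array of pro-B(−) or pro-B(−)/Mock or pro-B(−)/LMO2 replicate 1 (adjusted p from 0.0537 to 0.136).

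Among the factors that turn the loaded ring into a moving helicase, 5 of 6 fell, with a median of -0.77. Mcm10, which is needed to start unwinding, was at 3.52 and 3.51 in pro-B(+), 3.48 and 3.47 in pro-B(−), 3.23 and 3.21 in pro-B(−)/Mock and 2.30 and 2.19 in pro-B(−)/LMO2. The parental arrays were close together, pro-B(−)/Mock lay a little under them and pro-B(−)/LMO2 far under all 6. It fell by 0.98 on the log2 scale against pro-B(−)/Mock (SE 0.05, adjusted p = 3.11e-05), a 1.97-fold lower signal. The GINS complex, a ring of 4 different subunits, held called and uncalled subunits. Gins2 was at 1.47 and 1.51 in pro-B(+), 1.59 and 1.56 in pro-B(−), 1.56 and 1.53 in pro-B(−)/Mock and 0.66 and 0.64 in pro-B(−)/LMO2. The first 6 of these values lay between 1.47 and 1.59, and the change against pro-B(−)/Mock was -0.90 (SE 0.04, adjusted p = 1.72e-05). Gins1 changed by -0.81 (SE 0.06, adjusted p = 0.000128), from 2.49 and 2.56 to 1.74 and 1.68. Gins4 was called at a smaller size, from 1.87 and 1.89 to 1.43 and 1.49. Gins3, singled out after its values were seen, was at 3.55 and 3.52 in pro-B(−)/Mock and 3.45 and 3.38 in pro-B(−)/LMO2 and was not called (-0.12, adjusted p = 0.0919). It was called lower with normexp (-0.15, adjusted p = 0.0246), with median scaling (-0.33, adjusted p = 0.00247) and with an intensity trend (adjusted p = 0.0405), and was 0.02 with quantile normalization. Cdc45, the partner of GINS on the ring, fell by 0.72 on the log2 scale (SE 0.05, adjusted p = 7.95e-05), from -0.19 and -0.21 to -0.98 and -0.87.

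Licensing genes all fell (3 of 3, median -0.64). Gmnn, geminin, the inhibitor of CDT1, was at 1.83 and 1.86 in pro-B(+), 2.01 and 1.99 in pro-B(−), 1.65 and 1.64 in pro-B(−)/Mock and 0.89 and 0.87 in pro-B(−)/LMO2, and changed by -0.76 (SE 0.03, adjusted p = 2.16e-05). The 4 groups did not overlap, and the gap below pro-B(−)/Mock was the widest. Cdc6, which helps to load the ring, changed by -0.64 (SE 0.06, adjusted p = 0.000343), from -0.14 and -0.28 to -0.90 and -0.80. A second Cdc6 probe changed by -0.26 and was not called (adjusted p = 0.107), so the size of the Cdc6 change depended on the probe. Cdt1, the target of geminin, moved less, from 4.29 and 4.33 to 3.94 and 3.89.

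All 6 genes of the MCM2-7 ring fell, with a median of -0.43 and a range of -0.54 to -0.31. Mcm4 changed most (-0.54, SE 0.05, adjusted p = 0.00025), from 5.05 and 5.13 in pro-B(−)/Mock to 4.56 and 4.54 in pro-B(−)/LMO2. Mcm6 changed least, from 6.57 and 6.57 to 6.29 and 6.22, and was at 6.48 and 6.42 in pro-B(+) and 6.52 and 6.48 in pro-B(−). For each of the 6 subunits both pro-B(−)/LMO2 arrays lay under all other arrays, as they did for 28.8% of all probes tested. Quantile normalization narrowed the median of this group, relative to all probes, from -0.38 to -0.18.

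Origin recognition genes fell in 5 of 6 cases, with a median of -0.46. Orc1, the subunit that varies with the cell cycle, was at -0.93 and -0.85 in pro-B(+), -1.05 and -0.99 in pro-B(−), -1.76 and -1.70 in pro-B(−)/Mock and -2.33 and -2.40 in pro-B(−)/LMO2. Its values formed 3 levels, high in both parental lines, lower in pro-B(−)/Mock and lowest in pro-B(−)/LMO2. The step from the parental lines to pro-B(−)/Mock cannot be told apart from slide, and the last step was -0.63 (SE 0.05, adjusted p = 0.000176). Orc6 was at 3.54 and 3.50 in pro-B(−)/Mock and 2.92 and 2.93 in pro-B(−)/LMO2, and Orc2 at -0.13 and -0.23 and -0.78 and -0.72. Orc6 changed by -0.60 (SE 0.04, adjusted p = 6.66e-05) and Orc2 by -0.57 (SE 0.05, adjusted p = 0.000322), and in Orc6 the pro-B(−)/Mock arrays lay above those of pro-B(−), whereas in Orc2 these groups overlapped. Orc4, singled out after its values were seen, was not called (-0.19, adjusted p = 0.0577, but 0.0271 with quantile normalization and 0.00587 with median scaling), with -0.99 and -1.07 in pro-B(−)/Mock and -1.22 and -1.21 in pro-B(−)/LMO2. Its second probe, also well above background on all arrays, was called (-0.27, adjusted p = 0.00304).

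At the fork, all 6 genes of the clamp and its loader fell, with a median of -0.50. Pcna, the clamp that holds polymerases on DNA, was at 5.57 and 5.60 in pro-B(+), 5.63 and 5.51 in pro-B(−), 5.38 and 5.42 in pro-B(−)/Mock and 4.85 and 4.80 in pro-B(−)/LMO2. The last pair stood far under the other 6 arrays, which lay between 5.38 and 5.63, and the change against pro-B(−)/Mock was -0.58 (SE 0.05, adjusted p = 0.000261). Rfc4, a subunit of the clamp loader, changed most of this group (-0.74, SE 0.03, adjusted p = 2.80e-05), from 3.81 and 3.81 to 3.06 and 3.08, and its second probe changed by -0.76 (adjusted p = 0.000275). Rfc1, the large loader subunit, changed by -0.54 (SE 0.03, adjusted p = 8.09e-05). Rfc2 changed least, from 3.45 and 3.40 to 3.27 and 3.20, so the 5 loader subunits spread from -0.74 to -0.19. The Rfc2 call was lost without pro-B(−)/Mock replicate 1 (adjusted p = 0.0625) or pro-B(−)/LMO2 replicate 2 (adjusted p = 0.0586), and with quantile normalization (adjusted p = 0.443).

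Polymerase and primase genes all fell (8 of 8, median -0.52). Prim2, a primase subunit, changed most (-0.68, SE 0.04, adjusted p = 6.40e-05), from 2.09 and 2.15 to 1.41 and 1.47. Its partner Prim1, the catalytic primase subunit, changed by -0.54 (SE 0.04, adjusted p = 0.000137), from 4.13 and 4.17 to 3.60 and 3.62. Pola2, which joins primase to polymerase alpha, changed by -0.52 (SE 0.06, adjusted p = 0.000599). For the leading-strand polymerase epsilon, Pole2 changed by -0.67 (SE 0.06, adjusted p = 0.000257) and the catalytic Pole by -0.51 (SE 0.04, adjusted p = 0.000165). The 3 polymerase delta genes ranged from -0.49 for Pold2 to -0.31 for Pold1, and Pold1 was at 3.77 and 3.69 in pro-B(−)/Mock and 3.46 and 3.39 in pro-B(−)/LMO2. In all 8 genes both pro-B(−)/LMO2 arrays lay under both pro-B(−)/Mock arrays, as they did for 46.2% of all probes tested.

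Replication protein A, the trimer that coats single-stranded DNA, was split. Rpa2 was at 1.65 and 1.67 in pro-B(−)/Mock and 0.98 and 0.90 in pro-B(−)/LMO2, and fell by 0.72 on the log2 scale (SE 0.04, adjusted p = 6.27e-05). Rpa3 fell by 0.66 on the log2 scale (SE 0.03, adjusted p = 4.01e-05), from 4.05 and 4.05 to 3.41 and 3.38. Rpa1, the large subunit, singled out after its values were seen, was at 4.79 and 4.70 in pro-B(+), 4.86 and 4.81 in pro-B(−), 4.91 and 4.91 in pro-B(−)/Mock and 4.85 and 4.80 in pro-B(−)/LMO2. Its 8 values lay between 4.70 and 4.91, and its change was not called (-0.08, adjusted p = 0.176). It was -0.29 with median scaling (adjusted p = 0.00653) and 0.12, adjusted p = 0.0445 with quantile normalization.

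Both enzymes that finish Okazaki fragments fell. Fen1, the flap nuclease, changed by -0.68 (SE 0.05, adjusted p = 0.000182), from 4.67 and 4.75 in pro-B(−)/Mock to 4.02 and 4.03 in pro-B(−)/LMO2. Lig1, the ligase that seals the fragments, moved less, from 4.29 and 4.29 to 3.89 and 3.88. E2f1, the one transcription factor of the set, was at 1.81 and 1.82 in pro-B(+), 1.84 and 1.83 in pro-B(−), 1.83 and 1.85 in pro-B(−)/Mock and 1.56 and 1.53 in pro-B(−)/LMO2. It was level across 3 groups and lower in the fourth, with a called change of -0.29 (SE 0.03, adjusted p = 0.000531).

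Genes with and without an E2F word overlapped in their change with Lmo2. The 14 genes with a word had a median change of -0.41 and ranged from -0.67 to -0.12, and the 23 genes without one had a median of -0.56 and ranged from -1.10 to -0.08. Tk1, Mcm10 and Rrm1 were in the group without a word, and Gins3, whose stretch is printed above, was not called. Of the ring subunits, Mcm3, Mcm5, Mcm6 and Mcm7 hold one and Mcm2 does not, and Mcm4 was not in the promoter table.

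**Figure D3:**
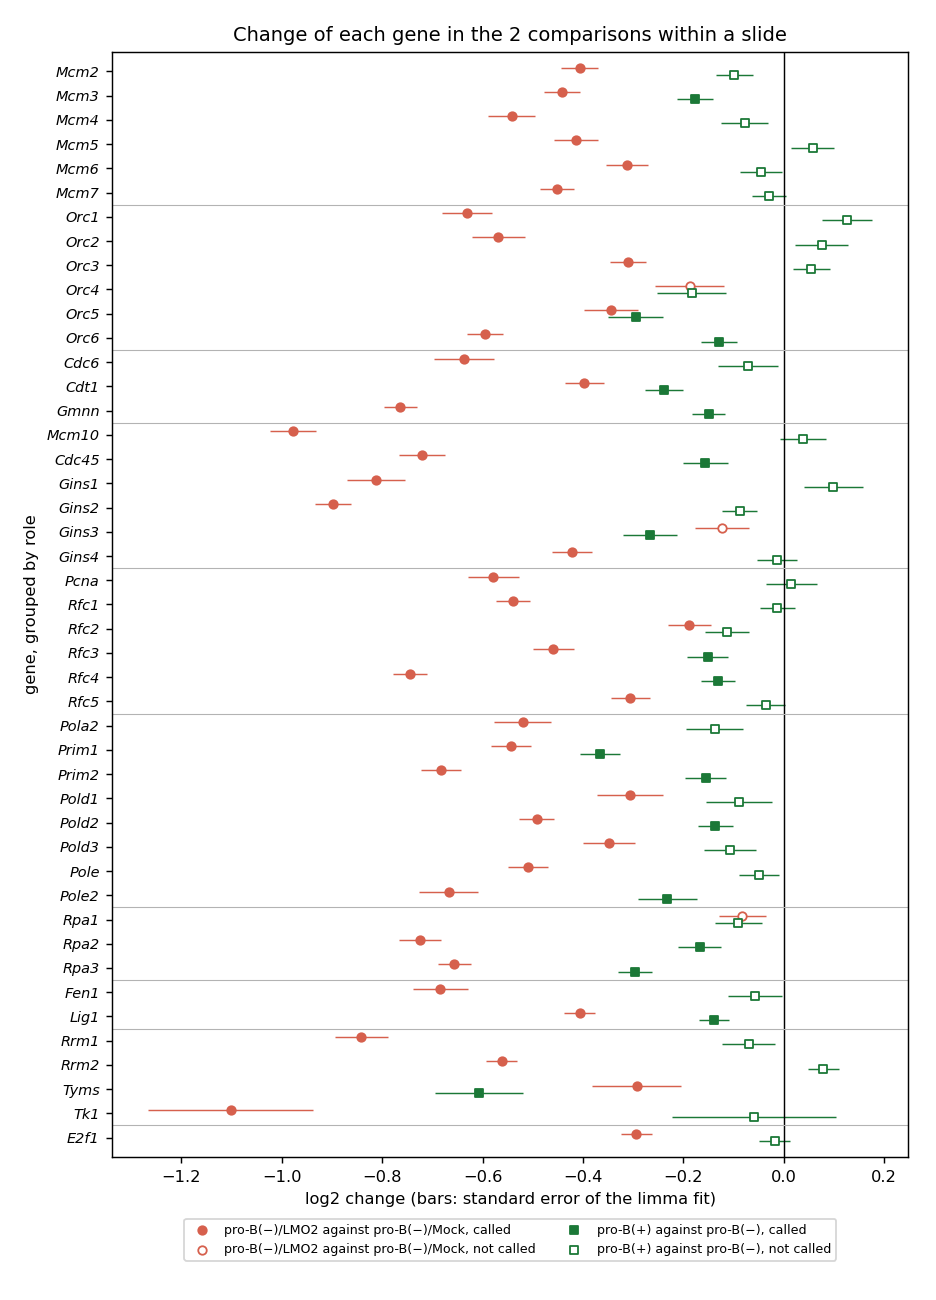
Log2 change (horizontal axis) of each of the 45 genes (vertical axis, in role groups parted by lines) in pro-B(−)/LMO2 against pro-B(−)/Mock (red circles) and in pro-B(+) against pro-B(−) (green squares), 2 arrays against 2, with bars for the standard error of the limma fit and filled symbols for called changes. All red circles lie left of 0, from -1.10 for Tk1 to -0.08 for Rpa1, and most green squares lie within 0.3 of 0.

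The parental comparison asked how the same genes differ between the line with T-lineage potential and the line without it. Of the 45 genes, 17 were called lower in pro-B(+) (37.8%) and 0 higher, where 28.0% of the 23467 probes tested were called lower and 20.6% higher. The median log2 change was -0.09, against -0.04 over all probes tested, and 1 gene was called lower by 0.5 or more, against 8.16% of all probes. Both pro-B(+) arrays lay under both pro-B(−) arrays for 31 genes, as they did for 44.4% of probes. Per role, 1 of 6 MCM2-7 genes, 2 of 6 origin recognition genes, 2 of 6 helicase activators and 4 of 8 polymerase and primase genes were called lower.

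Tyms differed most between the parental lines, at -2.59 and -2.48 in pro-B(+) and -1.94 and -1.91 in pro-B(−), a change of -0.61 (SE 0.09, adjusted p = 0.00295). The pro-B(−) arrays were the highest of all 8 for this dim probe, and pro-B(+) lay near pro-B(−)/Mock. Prim1 changed by -0.37 (SE 0.04, adjusted p = 0.000942), with 3.94 and 3.86 in pro-B(+) and 4.26 and 4.26 in pro-B(−). Rpa3 changed by -0.30 (SE 0.03, adjusted p = 0.00108), with 3.79 and 3.77 in pro-B(+) and 4.10 and 4.06 in pro-B(−). None of these 3 pairs of groups overlapped, where both pro-B(+) arrays lay under both pro-B(−) arrays for 44.4% of all probes tested. Tk1 and Mcm10, which fell most with Lmo2, were not called here. Tk1 was at 3.27 and 3.27 against 3.39 and 3.28, and Mcm10 at 3.52 and 3.51 against 3.48 and 3.47. Gins2, Rrm1 and Gins1, the next largest falls with Lmo2, were not called here either. Gmnn, Rfc4, Rpa2 and Cdc45, which followed them, were called lower in pro-B(+) (-0.15, -0.13, -0.17 and -0.16).

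The size of the parental difference rested on the scaling. With each array scaled to its median in place of its upper quartile, the median of all probes in this comparison moved from -0.04 to -0.33, and 44 of the 45 genes were called lower, where 66.4% of probes were called lower and 12.5% higher. Relative to all probes, the median of the 45 genes was -0.05 under both scalings and 0.02 with quantile normalization. Quantile normalization called 14 genes lower and 3 higher, where 32.7% of probes were called lower and 20.8% higher. Leaving out any 1 array of the parental lines gave a median of -0.12 to -0.09, against -0.05 to -0.03 over all probes. Fewer of the 45 genes, and a smaller share of all probes, were then called lower. Stromal and myeloid markers differed between these lines as well, with medians of 1.20 over 17 stromal and 3.12 over 14 myeloid markers tested, and their part in the differences of the 45 genes was not tested.

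The control transduction was compared with its parent so that the levels of the 4 groups could be read together. In pro-B(−)/Mock against pro-B(−), 24 of the 45 genes were called lower (53.3%) and 1 higher, where 30.2% of 23047 probes were called lower and 27.9% higher, and the median was -0.15 against -0.01. Both pro-B(−)/Mock arrays lay under both pro-B(−) arrays for 32 genes, against 42.6% of probes, and 2 genes, Orc1 and Tyms, were called lower by 0.5 or more, against 11.9% of probes. These groups lie on different slides, and slide and vector cannot be told apart. Orc1 changed by -0.72 (SE 0.05, adjusted p = 0.000193) and Tyms by -0.68 (SE 0.09, adjusted p = 0.00171), and neither pair of groups overlapped. Pola2 was at -0.68 and -0.72 in pro-B(−) and -1.17 and -1.20 in pro-B(−)/Mock (-0.49, SE 0.06, adjusted p = 0.00119). Rfc1, the one gene called higher, was at 3.39 and 3.36 in pro-B(−) and 3.52 and 3.47 in pro-B(−)/Mock (0.12, SE 0.03, adjusted p = 0.0255), and this call was lost when any 1 of those 4 arrays was left out (adjusted p from 0.0519 to 0.121). By role, 6 of 8 polymerase and primase genes were called lower and 1 of 4 deoxynucleotide genes, and Rrm1, Rrm2 and Tk1 were not called.

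The 2 comparisons within a slide were set against each other in the same fit, as the parental difference minus the effect of Lmo2, so that a positive value means a larger fall with Lmo2 than in pro-B(+). Of the 45 genes, 37 were called higher in this difference (82.2%) and 0 lower, where 29.0% of the 24583 probes tested were called higher and 25.1% lower, and the median was 0.42 against 0.01. A difference of 0.5 or more was called for 17 genes, against 15.8% of probes. Tk1 differed by 1.04 (SE 0.23, adjusted p = 0.0125), Mcm10 by 1.02 (SE 0.07, adjusted p = 0.000145) and Gins1 by 0.91 (SE 0.08, adjusted p = 0.000471). All 6 MCM2-7 genes were among the 37, from 0.26 to 0.47. Without pro-B(−)/LMO2 replicate 1 the difference of Tk1 was 0.78 and that of Mcm10 1.07, and without replicate 2 they were 1.30 and 0.96. The lower end was Tyms, at -0.31 (SE 0.12, adjusted p = 0.0826), which was not called here but passed as lower with median scaling (adjusted p = 0.0421), with normexp (adjusted p = 0.00752) and without pro-B(−)/LMO2 replicate 1 (adjusted p = 0.0248).

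Most genes of the same processes outside the 45 were also lower with Lmo2. The 32 other replication fork and origin factors had a median of -0.51 in pro-B(−)/LMO2 against pro-B(−)/Mock. Of these, 25 fell (78.1%) and 2 rose (6.25%), beside 36.0% and 28.0% of all probes. Among them Rnaseh2b, a subunit of the nuclease that removes ribonucleotides from DNA, changed by -0.75, Chaf1b, a chromatin assembly factor behind the fork, by -0.70, and Tipin, of the fork protection complex, by -0.66. The 2 that rose were Pold4 (0.62), the small subunit of polymerase delta, and Chtf8 (0.53), of an alternative clamp loader. In the parental comparison 10 of these 32 genes fell (31.2%) and 1 rose (3.12%), beside 28.0% and 20.6% of all probes.

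Nucleotide synthesis held both directions. Of 31 further genes, 30 were tested with Lmo2 (Rrm2b was too dim), with a median of -0.47. Of these, 25 fell (83.3%) and 4 rose (13.3%), beside 36.0% and 28.0% of all probes. The largest falls were Shmt1, which feeds thymidylate synthesis with one-carbon units (-1.02, adjusted p = 0.0037), Nme1, a nucleoside diphosphate kinase (-0.95, adjusted p = 2.74e-05), and Dctd, dCMP deaminase (-0.90, adjusted p = 0.000112). Dguok and Tk2, the deoxynucleoside kinases of mitochondria, rose by 0.69 (adjusted p = 0.000104) and 0.68 (adjusted p = 8.61e-05), and Samhd1, which breaks deoxynucleotides down, rose by 0.47 (adjusted p = 0.00049). Tk2 was at -1.18 and -1.23 in pro-B(−)/Mock and -0.56 and -0.49 in pro-B(−)/LMO2, opposite to the cytosolic Tk1. In the parental comparison 9 of the 30 fell (30%) and 4 rose (13.3%), beside 28.0% and 20.6% of all probes.

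Regulators of the step from G1 to S phase and genes of mitosis were read from 2 further lists. Of 23 E2F and G1-S regulators, 22 were tested (Ccne2 was too dim), and their median with Lmo2 was -0.49. Of these, 18 fell (81.8%) and 3 rose (13.6%), beside 36.0% and 28.0% of all probes. Ccna2, cyclin A2, changed by -0.80 (adjusted p = 1.75e-05), its kinase Cdk2 by -0.80 (adjusted p = 0.000261) and Cks1b, a subunit of such kinases, by -0.73 (adjusted p = 0.000167). The 3 that rose were Rb1 (1.11, adjusted p = 1.24e-05) and its relative Rbl2 (0.50, adjusted p = 0.000597), which hold E2F factors in check, and E2f4 (0.25, adjusted p = 0.00191), an E2F that acts mostly in repression. Rb1 was at -0.03 and -0.00081 in pro-B(−)/Mock and 1.09 and 1.11 in pro-B(−)/LMO2, with no overlap. Of 30 mitosis genes, 29 were tested (Aurkb was too dim) and all 29 fell, beside 36.0% of all probes, with a median of -0.70. They were led by Ttk, a spindle checkpoint kinase (-1.17, adjusted p = 4.34e-05), Aurka, the spindle pole kinase Aurora A (-0.92, adjusted p = 3.21e-05), and Cdc25c, which activates the mitotic kinase (-0.90, adjusted p = 7.02e-05). In the parental comparison 6 of the 29 fell (20.7%) and 2 rose (6.90%), beside 28.0% and 20.6% of all probes. Each of these 4 lists had at least 16 genes called lower with Lmo2 under median scaling, quantile normalization, the deposited values and normexp. Of all probes, 53.6%, 36.2%, 36.3% and 33.0% were called lower in these settings, in the same order.

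**Figure D4:**
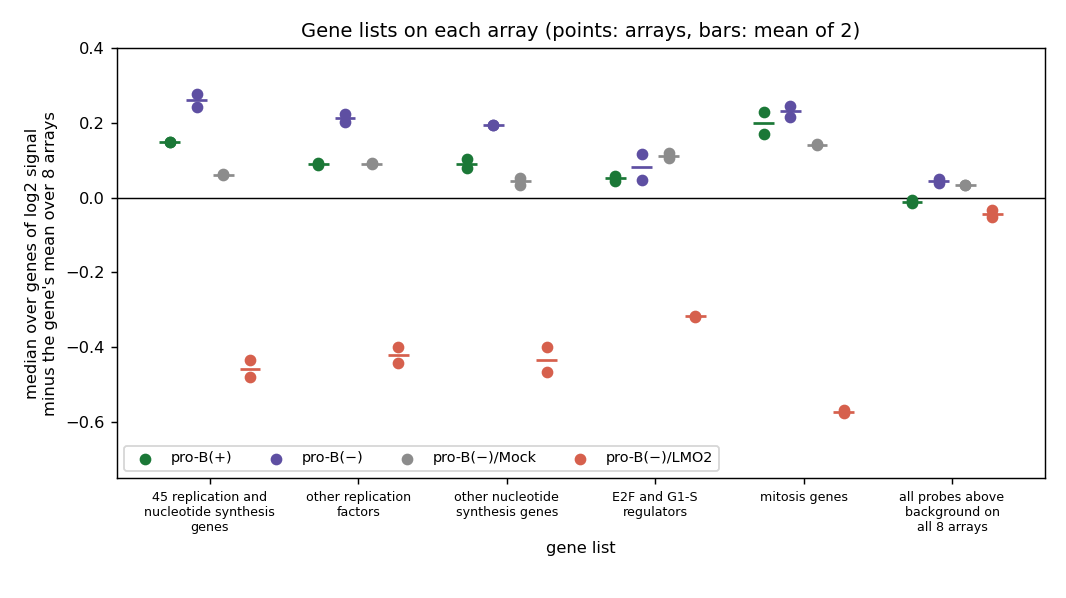
For each gene list (horizontal axis), the median over its genes of the log2 signal minus the gene's mean over 8 arrays (vertical axis), with a point for each array and a bar for the mean of the 2 arrays of a group. The pro-B(−)/LMO2 points lie under the other 6 arrays in every list, at -0.48 and -0.43 for the 45 genes and at -0.58 and -0.57 for mitosis genes, whereas all probes lie between -0.05 and 0.05 when rounded.

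Markers of stromal cells, myeloid cells and lymphoid progenitors moved between the groups as well. Summed over 20 stromal markers, with 1 for the upper quartile of an array, the signal was 87.6 to 91.2 in pro-B(+), 84.3 to 86.7 in pro-B(−), 115 to 117 in pro-B(−)/Mock and 98.7 to 99.8 in pro-B(−)/LMO2. The brightest probes, Vim and Thy1 above all, weigh most in this sum, and the study also uses Thy1 as a mark of T-lineage cells. Vim was at 5.27 and 5.11 in pro-B(+) and 5.15 and 5.10 in pro-B(−). Thy1, at 4.07 and 4.13 in pro-B(+) and 5.13 and 5.05 in pro-B(−), ran opposite to most of the list between these lines. Thy1 was also lower with Lmo2, at 5.49 and 5.49 in pro-B(−)/Mock and 4.64 and 4.63 in pro-B(−)/LMO2. The lower sum in pro-B(−)/LMO2 is therefore not a fall of the list as a whole. Of the 20, 17 were well above background on all 8 arrays, Col1a1, Col1a2, Fn1 and Sparc among them, Postn was so in both transductants and in neither parental line, and Dcn and Lum were dim throughout. Of the stromal markers tested, 8 of 18 rose (44.4%) and 5 fell (27.8%) with Lmo2 against the empty vector, beside 28.0% and 36.0% of all probes, 14 of 17 were higher and 1 lower in the pro-B(+) line against pro-B(−), and 16 of 18 rose in pro-B(−)/Mock against its parent. Summed over 14 myeloid markers the signal was 127 to 130, 81.5 to 90.6, 82.7 to 85.1 and 99.5 to 106 in the same order of groups. Csf3r, the brightest of them, weighs most in this sum and masks the rest of the list. It was at 6.08 and 6.02 in pro-B(+), 6.29 and 6.14 in pro-B(−), 6.07 and 6.04 in pro-B(−)/Mock and 5.84 and 5.73 in pro-B(−)/LMO2. Of the myeloid markers, 5 of 12 rose and 3 fell with Lmo2. In the pro-B(+) line against pro-B(−), 11 of 14 were higher and 1 lower, with a median log2 change of 3.12. In pro-B(−) and pro-B(−)/Mock, 11 of the 14, such as Itgam, Csf1r and Mpo, were well above background on both arrays, and Lyz2, S100a8 and S100a9 were not. In pro-B(−)/LMO2 S100a8, S100a9 and Ctsg were not, whereas Lyz2 was. Of the lymphoid progenitor markers, 3 of 13 tested rose (23.1%) and 7 fell (53.8%) with Lmo2, beside 28.0% and 36.0% of all probes. In pro-B(+) against pro-B(−), 3 of 14 were higher (21.4%) and 7 lower (50%), beside 20.6% and 28.0%. Whether the stromal and myeloid transcripts came from other cells, and their part in the levels of the 45 genes, was not tested.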

How the data were processed

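Total RNA of 4 groups (2 arrays each) had been labelled with Cy3 and hybridised to 1-colour Agilent whole mouse genome arrays. The deposited scanner files hold processed intensity values from Feature Extraction 11.5.1.1, and the deposited series table holds log2 values that differ from log2 processed intensity by 1 constant per array. Here log2 processed intensity minus the array's 75th percentile was used. Of 39429 probes, 51 outliers were dropped, and 26581 of 39378 were named through RefSeq accessions. A probe entered a comparison if, in 1 or more of its groups, neither array flagged it as dim, and was tested in 1 limma 3.58.1 fit (R 4.3.3) of all 4 groups, with 4 residual degrees of freedom and Benjamini-Hochberg adjustment at 0.05. The code was tested on simulated data.

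The members, gene lists and tests were chosen with earlier results of these data known. Changes are given for members called at 0.5 or more and the 3 largest called each way, for at most 3 each way per other list, and otherwise as counts, medians and ranges. The number of arrays limits the precision. Alternatives covered scaling, background, dim probes, probes per gene, the fit, a replicate block and left-out arrays.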

Additional observations from a re-analysis of the deposited data

Results flagged for a closer look

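Between the parental comparison and the effect of Lmo2, the difference was called higher for 37 of the 45 genes, against 29.0% of the probes tested. The joint limma fit tests the difference itself. The difference was called at 0.5 or more for 17 of these genes, against 15.8% of probes. These were, in helicase activation, Mcm10 at 1.02, Gins1 at 0.91, Gins2 at 0.81 and Cdc45 at 0.56. In deoxynucleotide synthesis they were Tk1 at 1.04, Rrm1 at 0.77 and Rrm2 at 0.64. Among origin and licensing genes they were Orc1 at 0.76, Orc2 at 0.64, Gmnn at 0.61 and Cdc6 at 0.57, although the second Cdc6 probe gave -0.44 (adjusted p = 0.0774) and the mean of its probes 0.06 (adjusted p = 0.637). At the fork they were Fen1 at 0.63, Rfc4 at 0.61, Pcna at 0.59, Rpa2 at 0.56, Prim2 at 0.53 and Rfc1 at 0.53. Without pro-B(−)/LMO2 replicate 1 Tk1 was 0.78, and without replicate 2 it was 1.30. All values are log2 differences, positive where the fall with Lmo2 was larger than that in pro-B(+).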

How the results depend on the processing

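The 42 genes called lower with Lmo2 numbered 39 to 41 when 1 array of either group was left out, and quantile normalization called 1 gene higher. Between the parental lines the 17 genes called lower became 44 with median scaling, 7 with no filter on dim probes, 10 with the prior variance taken from every probe (chosen after seeing the data) and 7 to 11 with 1 array left out, and quantile normalization called 3 higher. For all probes in that comparison, median scaling moved the split of lower and higher calls from 28.0% and 20.6% to 66.4% and 12.5%, and with Lmo2 from 36.0% and 28.0% to 53.6% and 17.4%, where the median of all probes moved from -0.04 to -0.25. Between pro-B(−)/Mock and pro-B(−), the 1 gene called higher, Rfc1, was 0 genes with normexp, no filter, own arrays only, the prior from every probe and 1 array left out (0 to 0). In the difference between the effects, 1 gene was called lower with median scaling (1, Tyms), quantile normalization (1, Gins3), normexp (1, Tyms) and 1 array left out (0 to 1), and Cdc6 was 0.06 (adjusted p = 0.637) with the mean of its probes. The median deviation of pro-B(+), 0.15, was -0.021 with median scaling, 0.18 with quantile normalization, 0.15 with the deposited values, 0.16 with normexp and 0.15 with the mean of all probes. That of pro-B(−), 0.26, was 0.37 and 0.20 with median scaling and quantile normalization, that of pro-B(−)/Mock, 0.06, was 0.19 and 0.012, and 0.068 with normexp and 0.054 with the mean of all probes. That of pro-B(−)/LMO2, -0.46, was -0.53 and -0.39. Beyond the settings' own construction the cause was not tested. Replicate numbers did not pair the arrays (correlations of replicate differences from -0.03 to 0.05), and with a replicate block 42 genes were called lower with Lmo2, 15 in the parental comparison and 23 in pro-B(−)/Mock, and 35 were called higher in the difference. For the genes given by the naming rule alone, 762 recomputed changes kept direction and side of the threshold, 9 lost the call and 0 reversed. Other members also lost or gained calls, as the counts above show, and Rpa1 and Gins3 changed sign with quantile normalization. Dim probes such as that of Tyms, nearest to background, limit the calls.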

Other observations

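A second probe for 5 of the 45 genes gives a view that the text above uses only in part. Between the parental lines, the second Cdc6 probe changed by -0.70 on the log2 scale and the chosen one by -0.07 (limma, adjusted p = 0.00558 for the second), and its difference between the effects was -0.44 (adjusted p = 0.0774). The second Orc3 probe changed by -0.20 (adjusted p = 0.00501) with Lmo2. The second Pole probe was well above background on 1 array only.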
